A study of Mus musculus with 238 samples.

Results

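The 4 genes described here are Chat, Slc18a3, Slc5a7 and Ache, which encode the proteins that make, package, recycle and break down acetylcholine. They were taken by name from a table of read counts over 21076 genes, in which all 4 were present, and followed through 229 brain libraries and 9 liver libraries. The mice were of the C57BL/6JN strain and 19 months old, and no gene was deleted or added in any group. In the diet experiment, 5 female mice were dietary restricted (aDR, labelled DR in liver) and 4 were fed freely (AL). In the plasma experiment, 3 male mice received young mouse plasma (YMP) and 4 received PBS, both injected behind the eye. All mice of an experiment were of 1 sex, so sex and experiment cannot be told apart. Each of 15 brain regions of each mouse gave 1 library where it was sequenced, and groups within a region held 2 to 5 mice.

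Chat (choline acetyltransferase) joins choline to an acetyl group from acetyl-CoA in the nerve terminal. Slc18a3 (the vesicular acetylcholine transporter) loads the product into synaptic vesicles. Slc5a7 (the high-affinity choline transporter) returns choline to the terminal after release, and Ache (acetylcholinesterase) splits released acetylcholine in the synaptic cleft. The first 3 mark cholinergic neurons, whereas Ache is also made by many cells that receive acetylcholine. In the rodent brain, cholinergic cell bodies lie in the striatum as interneurons, in the basal forebrain, in the medial habenula above the thalamus, in pontine tegmental nuclei, and in the cranial motor nuclei of the brainstem. Cortex, hippocampus and olfactory bulb receive mainly cholinergic fibres, whose mRNA lies largely in the distant cell body.

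In GRCm38 (GENCODE M21), Chat lies at chr14:32408203-32465989 on the minus strand, and its 8 annotated transcripts together cover 4703 exon bases. Slc18a3 is a single-exon gene of 2413 bases at chr14:32462438-32464850 on the same strand, inside intron 1 of the 16-exon transcript Chat-201. The annotated starts of both genes are 1139 bases apart, and their exons share 0 bases. This nested arrangement is known as the cholinergic gene locus. The libraries carry no strand, so a read from an unspliced Chat transcript over the Slc18a3 exon cannot be told apart from a Slc18a3 read, and reads of the antisense gene Gm2990 cannot be told apart from Chat reads where they overlap. Slc5a7 lies at chr17:54273590-54299034 on the minus strand and overlaps no annotated gene. Ache lies at chr5:137287519-137294466 on the plus strand and overlaps the minus-strand lincRNA Gm42456 and the miRNA gene Mir8116.

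The RefSeq promoter windows (GRCm38.p6, 250 bases before to 50 after the start) are shown because Chat, Slc18a3 and Slc5a7 varied together across regions, as described next, whereas Ache did not follow them. All 4 genes were matched in the table of 32851 promoters. Capitals mark the core TGACG of the cAMP response element and the GC box GGGCGG, each searched on both strands. Overlapping matches of a motif were counted separately. The windows are chr14:32465860-32466159 (minus) for Chat, chr14:32464801-32465100 (minus) for Slc18a3, chr17:54298985-54299284 (minus) for Slc5a7 and chr5:137288004-137288303 (plus) for Ache.
Chat: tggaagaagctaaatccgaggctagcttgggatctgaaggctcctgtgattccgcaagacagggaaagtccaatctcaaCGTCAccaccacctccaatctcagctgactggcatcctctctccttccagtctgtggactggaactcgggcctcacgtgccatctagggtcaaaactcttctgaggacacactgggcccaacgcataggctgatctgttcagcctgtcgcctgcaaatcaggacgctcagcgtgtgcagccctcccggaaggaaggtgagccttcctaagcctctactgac
Slc18a3: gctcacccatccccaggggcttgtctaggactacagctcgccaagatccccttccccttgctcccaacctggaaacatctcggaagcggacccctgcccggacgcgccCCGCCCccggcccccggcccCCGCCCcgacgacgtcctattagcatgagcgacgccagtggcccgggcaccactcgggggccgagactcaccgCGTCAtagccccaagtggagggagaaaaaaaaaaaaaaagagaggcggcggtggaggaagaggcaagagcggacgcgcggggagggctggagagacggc
Slc5a7: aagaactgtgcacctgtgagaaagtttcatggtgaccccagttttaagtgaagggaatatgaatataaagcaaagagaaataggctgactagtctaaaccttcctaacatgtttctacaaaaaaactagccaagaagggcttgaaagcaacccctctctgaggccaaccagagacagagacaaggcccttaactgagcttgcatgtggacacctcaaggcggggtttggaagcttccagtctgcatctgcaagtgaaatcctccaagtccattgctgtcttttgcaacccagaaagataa
Ache: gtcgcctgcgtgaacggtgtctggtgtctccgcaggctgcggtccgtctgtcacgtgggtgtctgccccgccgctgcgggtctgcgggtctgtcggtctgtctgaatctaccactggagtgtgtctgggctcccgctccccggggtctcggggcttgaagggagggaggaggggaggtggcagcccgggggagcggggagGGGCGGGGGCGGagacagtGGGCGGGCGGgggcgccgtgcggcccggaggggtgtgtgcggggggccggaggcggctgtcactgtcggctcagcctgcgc
TGACG occurred once each in the Chat and Slc18a3 windows, at positions 80 and 202, and in 20.8% of all promoters. GGGCGG occurred at 2 positions in the Slc18a3 window, at 4 in the Ache window, and in 35.7% of all promoters. Neither string was found in the Slc5a7 window. GC content was 44.7% in Slc5a7, 55.7% in Chat, 67.0% in Slc18a3 and 74.0% in Ache, and the windows held 1, 10, 27 and 30 CpG dinucleotides in that order.

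Library totals ran from 0.606 M to 32.4 M counts, with a median of 8.44 M and 6 libraries under 2 M (M, mega). Levels are given as CPM, counts scaled to a common library total of 1 M. Some libraries stood apart for the genes described here. In hypothalamus the library of PBS mouse 72, and in thalamus those of PBS mouse 76 and YMP mouse 81, were high in Chat, Slc18a3 and Slc5a7. The thalamus library of aDR mouse 64 was high in Chat and Slc5a7. In medulla that of PBS mouse 84 was low. In pons that of aDR mouse 67 had 23.4% of its counts in 10 genes, against 5.72 to 7.12% in the other pons libraries. Results that rest on them are given with and without them.

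Chat was high in 4 of the 15 regions. In AL mice it measured 54.5, 48.2, 55.1 and 46.9 CPM in caudate putamen, the mouse striatum, with a mean of 51.2 ± 4.21 (SD, n = 4). In medulla the 4 AL mice gave 42.2, 32.4, 31.96 and 11.7 CPM, a mean of 29.6 ± 12.8. Corpus callosum averaged 24.0 ± 7.77 CPM over 3 mice and SVZ (subventricular zone) 9.09 ± 3.05 over 4. Every other region averaged 1.34 CPM or less, among them pons at 0.288, thalamus at 0.142 and hypothalamus at 1.25 CPM. The 4 regions with the highest means were each called higher than the mean of the 14 other regions, and 5 of the remaining 11 were called lower (edgeR quasi-likelihood test, Benjamini-Hochberg adjusted p under 0.05, as for all calls). Over all genes and regions of the AL mice, 25.4% of these tests were called higher and 22.1% lower, so a share of 4 in 15 higher is near the background. These contrasts are on the log scale, where regions with no counts pull the reference down, so their fitted sizes are not given.

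Neighbours in the order of Chat levels separated at 2 of 14 steps in AL mice. Over the pooled steps in the orders of all genes described here, 41.7% of all gene tests were called. Corpus callosum exceeded SVZ by 1.52 on the log2 scale (SE 0.47, edgeR adjusted p = 0.0173), and SVZ exceeded choroid plexus by 2.36 (SE 0.53, edgeR adjusted p = 6.19e-04). Caudate putamen lay above medulla without overlap between the AL mice, but the difference of 0.85 (SE 0.41) was not called (edgeR adjusted p = 0.0690). In PBS mice none of the 14 steps was called for Chat, with 35.1% of all gene tests called over the steps pooled in the same way. The PBS means kept caudate putamen first at 43.4 ± 12.5 CPM, then medulla at 30.3 ± 26.5, corpus callosum at 20.4 ± 8.38 (n = 3) and SVZ at 13.5 ± 7.15 CPM. Hypothalamus came next at 12.1 ± 19.3 CPM (n = 3), a mean set by mouse 72 at 34.4 CPM beside 0.733 and 1.09 CPM in the other 2 mice.

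**Figure D1:**
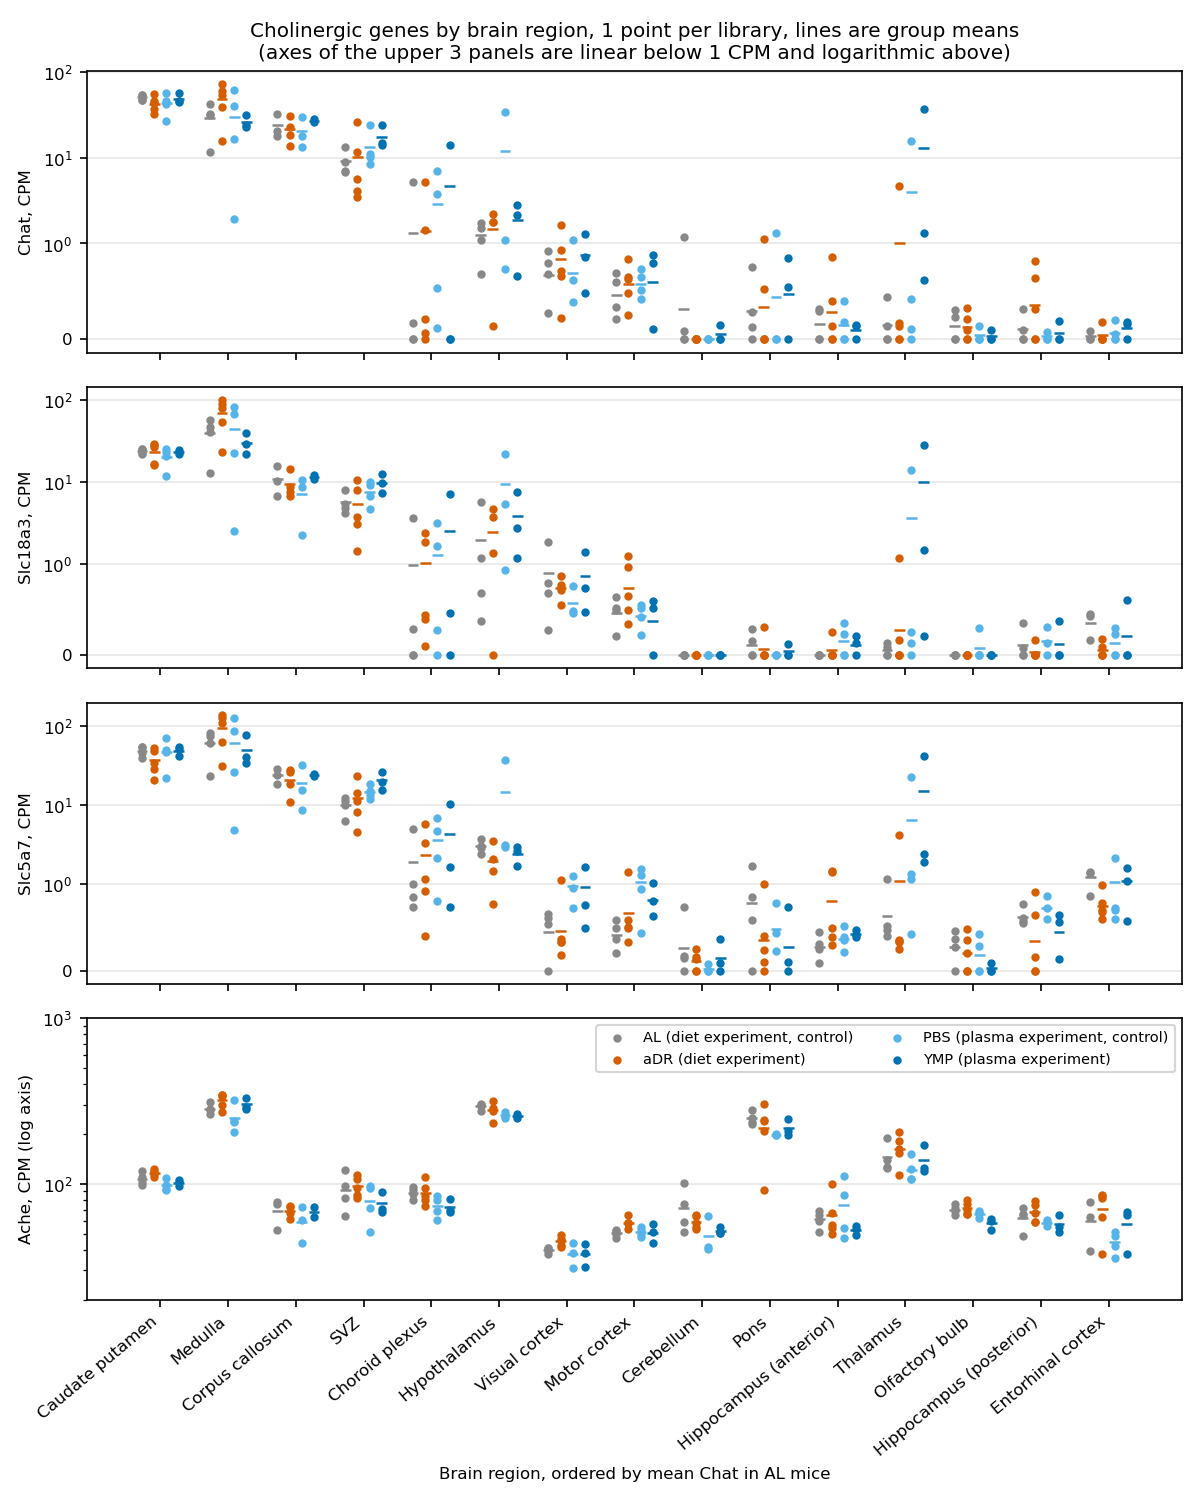
Level in CPM (vertical axes) of Chat, Slc18a3, Slc5a7 and Ache in each brain region (horizontal axis, ordered by mean Chat in AL mice), with 1 point per library, coloured by group, and short lines for group means. Chat, Slc18a3 and Slc5a7 are high in caudate putamen, medulla, corpus callosum and SVZ with single high libraries in thalamus and hypothalamus, and Ache is highest in medulla, hypothalamus and pons.

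Slc18a3 and Slc5a7, the 2 transporters, were high in the same 4 regions, but medulla came before caudate putamen. In AL medulla Slc18a3 measured 58.2, 40.8, 47.2 and 12.9 CPM (mean 39.8 ± 19.3), and in AL caudate putamen 25.6, 21.8, 25.6 and 22.7 CPM (mean 23.9 ± 1.96). The medulla values spread widely and include both the highest and the lowest of the 8 libraries. Slc5a7 measured 82.1, 60.9, 75.6 and 23.0 CPM in AL medulla (mean 60.4 ± 26.5) and 53.9, 39.6, 54.3 and 46.0 CPM in AL caudate putamen (mean 48.4 ± 7.02). Neither difference between these regions was called, with 0.68 (SE 0.44, edgeR adjusted p = 0.181) for Slc18a3 and 0.26 (SE 0.30, edgeR adjusted p = 0.450) for Slc5a7 on the log2 scale. Slc5a7 was lower at each step from caudate putamen through corpus callosum (23.8 CPM), SVZ (9.92 CPM) and hypothalamus (2.97 CPM), and each of these 3 steps was called (edgeR adjusted p = 0.0415, 0.00260 and 1.65e-04). For Slc18a3 the step from SVZ (5.65 CPM) to hypothalamus (1.98 CPM) was the 1 called of 14 (edgeR adjusted p = 0.0166).

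In AL mice Slc18a3 was called higher in 5 regions, the 4 named and hypothalamus, and lower in 0. Slc5a7 was called higher in 4 and lower in 8. In PBS mice Chat, Slc18a3 and Slc5a7 were each called higher in 5 regions, the same 4 and hypothalamus, against a background of 22.6% of all gene tests. Lower calls in PBS mice numbered 0 for Chat, 0 for Slc18a3 and 2 for Slc5a7, against 18.7% of all gene tests. Without mouse 72 the number of PBS regions called higher was again 5 for all 3, but which regions these were was not recorded.

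In most libraries of the other regions the 3 genes were low, with exceptions in choroid plexus, thalamus and hypothalamus that are described further on. Slc18a3 had 0 counts in all 15 cerebellum libraries, where 3 counts would correspond to 0.231 to 0.617 CPM, and in 15 of 16 olfactory bulb libraries. Chat had 0 counts in 12 of 15 cerebellum libraries, 9 of 16 olfactory bulb libraries and 9 of 15 entorhinal cortex libraries, and at most 0.880 CPM in motor cortex and 1.65 CPM in visual cortex. Pons, whose tegmental nuclei hold cholinergic cells, gave at most 1.32 CPM of Chat over 15 libraries, with 0 counts in 7. All 9 liver libraries had 0 counts of Chat, Slc18a3 and Slc5a7, which allows levels of up to 0.247 to 0.857 CPM, and 2 to 16 counts of Ache. In bulk tissue, fewer cells of a type and less RNA per cell cannot be told apart.

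Ache had another distribution. In AL mice it was highest in hypothalamus at 294, 300, 303 and 277 CPM (mean 293 ± 11.8), medulla at 279, 282, 313 and 264 CPM (mean 285 ± 20.2) and pons at 249, 231, 281 and 236 CPM (mean 249 ± 22.5). These 3 regions overlapped, and neither step between them was called. The next step, from pons to thalamus at 145 ± 29.6 CPM, was 0.77 on the log2 scale (SE 0.16, edgeR adjusted p = 9.02e-05), and in PBS mice 0.72 (SE 0.19, edgeR adjusted p = 0.00282). Caudate putamen followed at 107 ± 9.73 CPM, below thalamus by 0.37 (SE 0.16, edgeR adjusted p = 0.0409) in AL mice, and visual cortex was last at 39.8 ± 1.52 CPM. Ache was called higher in the same 5 regions in both experiments (hypothalamus, medulla, pons, thalamus and caudate putamen), and lower in 8 regions in AL mice and 7 in PBS mice. The background given above was 25.4% higher and 22.1% lower in AL mice, and 22.6% and 18.7% in PBS mice. No brain library fell below 31.1 CPM of Ache.

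Compared per length of exon sequence, the relation between the genes differed by region. In AL caudate putamen the mean levels per kilobase were 10.9 CPM for Chat, 9.92 for Slc18a3, 8.58 for Slc5a7 and 23.3 for Ache. In AL medulla they were 6.28, 16.5, 10.7 and 61.6 CPM per kilobase in the same order. Hypothalamus, with 63.5 CPM per kilobase of Ache, had 0.267 of Chat.

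Across the 15 region means of AL mice, log2 CPM of Chat followed Slc18a3 with r = 0.98 and Slc5a7 with r = 0.97, and the same values in PBS mice were 0.967 and 0.979. Slc18a3 and Slc5a7 gave r = 0.98 in both. Ache gave r of 0.286 to 0.400 with the other 3 in AL mice and 0.379 to 0.482 in PBS mice. These r describe 15 regions that share mice and are given without a p. Of 15420 genes compared in AL mice outside the 4 described, the profile most like Chat was that of Pnmt (phenylethanolamine N-methyltransferase, which makes adrenaline; r = 0.908, and 0.697 in PBS mice), followed by Fgf3 (a fibroblast growth factor; 0.894 and 0.847), Gbx1 (a homeobox factor; 0.881 and 0.793), Rapsn (which clusters acetylcholine receptors at the neuromuscular junction; 0.879 and 0.825) and Mppe1 (0.879 and 0.851). Pnmt, Gbx1 and Rapsn were sparse, with highest region means of 1.07, 3.42 and 3.76 CPM.

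Slc18a3 was most like Fgf3, Tdrp, Pnmt, Psd4 and Papln, with r from 0.825 to 0.853, and Slc5a7 most like Fgf3, Psd4, Tdrp, Dusp19 and Rapsn, with r from 0.850 to 0.891. Fgf3 was thus among the 5 most like for each of the 3 genes. The genes most like Ache were Ufsp1 (a UFM1-specific peptidase; r = 0.963, and 0.934 in PBS mice), Fut4, Rnd2, Lhfpl5 and Arl2, with r from 0.930 to 0.942 for the last 4. Ufsp1 lies at chr5:137294629-137295665 on the same strand as Ache, and the 2 annotated genes are 163 bases apart. Reads that run on past the end of Ache cannot be told apart here from Ufsp1 reads.

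The transporters and Chat were not in 1 ratio everywhere, a pattern noticed in the values and given as a description. In caudate putamen the ratio of Slc18a3 to Chat counts ran from 0.417 to 0.639 over 16 libraries, with a median of 0.485. In medulla it ran from 0.980 to 1.69, with a median of 1.35. The ranges did not overlap, and the ratio was higher in medulla in 16 of 16 mice. Corpus callosum (median 0.430) and SVZ (median 0.612) had ratios under 1 in all their libraries. The ratio of Slc5a7 to Chat had a median of 0.982 in caudate putamen and 1.96 in medulla, and was again higher in medulla in 16 of 16 mice. In the libraries that stood apart, Slc18a3 to Chat was 0.900 and 0.758 in thalamus (mice 76 and 81) and 0.642 in hypothalamus (mouse 72), between the medians of caudate putamen and medulla. The thalamus library of aDR mouse 64, with few counts of either gene, had 0.25, below every caudate putamen library.

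**Figure D2:**
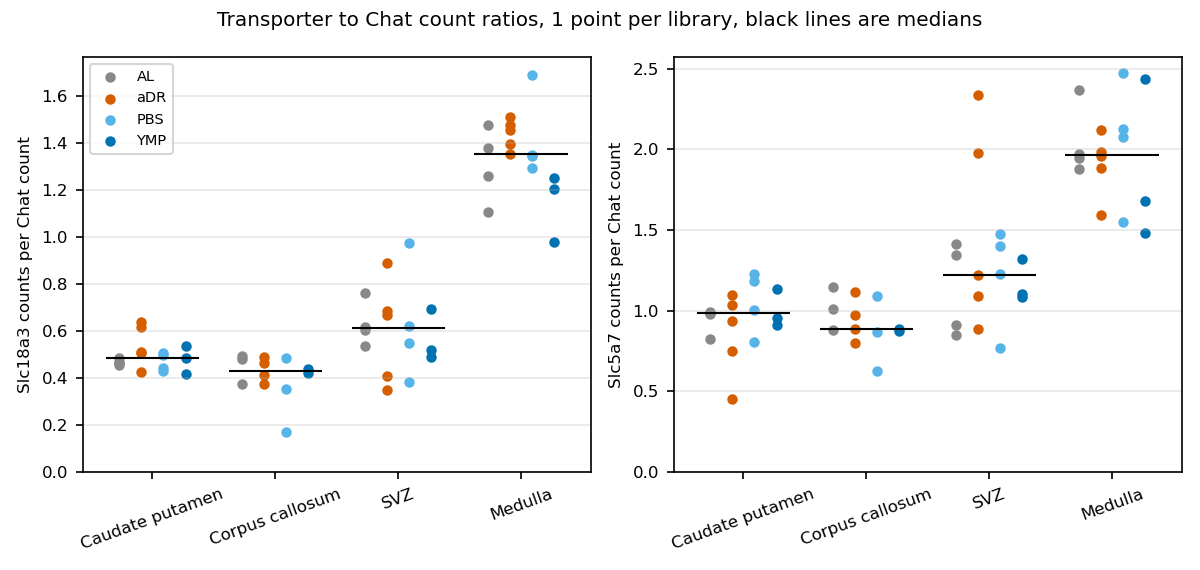
Counts of Slc18a3 (left) and Slc5a7 (right) per count of Chat (vertical axes) in the 4 regions with the highest Chat, with 1 point per library, coloured by group, and black lines at the medians. The medulla points, with medians of 1.35 and 1.96, lie above the caudate putamen points, with medians of 0.485 and 0.982.

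Chat was compared with marker genes of named cell types in the same libraries. Cranial motor neurons are themselves cholinergic, whereas striatal projection neurons are not. In medulla it spanned 1.94 to 73.1 CPM, and the summed 7 cranial motor neuron markers (among them Prph, the intermediate filament peripherin) spanned 25.5 to 221 CPM. The library lowest in both was that of PBS mouse 84, with Prph at 9.94 CPM against 25.8 to 125 CPM in the 15 others. Over 16 medulla mice, deviations of log2 CPM from the group means gave Pearson r of 0.995 for Chat with Slc18a3 (rho 0.974), 0.983 with Slc5a7 (rho 0.959), 0.76 with Ache (rho 0.612) and 0.907 with the mean log2 CPM of the motor neuron markers (rho 0.762). In permutations within groups (100000 resamples, two-sided), raw p was 1e-05, which is the smallest they can give, 2e-05, 0.0173 and 0.00285, and Benjamini-Hochberg values over 24 relations were 2.4e-04, 2.4e-04, 0.0378 and 0.00684. The p of rho for the same 4 relations adjusted to 2.4e-04, 2.4e-04, 0.0489 and 0.0160. Without the 2 mice farthest from the median of Chat, r was 0.983, 0.965, 0.697 and 0.624. Within the diet experiment r was 0.992, 0.985, 0.821 and 0.698, and within the plasma experiment 0.996, 0.983, 0.737 and 0.986. Without PBS mouse 84, r was 0.986, 0.972, 0.698 and 0.742 with adjusted permutation p of 2.4e-04, 9.6e-04, 0.0414 and 0.0391, while the p of rho adjusted to 0.0842 for Ache and 0.157 for the markers. Relative to pan-neuronal markers the relation with Ache was 0.44 and no longer called (adjusted permutation p = 0.130).

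In caudate putamen, Chat followed Slc18a3 (r = 0.887, rho 0.853, permutation p = 8.3e-04, adjusted 0.00332) and the 6 striatal projection neuron markers (r = 0.894, rho 0.847, permutation p = 4e-04, adjusted 0.00197). Without the 2 farthest mice r was 0.694 and 0.742. The relation with Slc5a7 (r = 0.726, rho 0.659, permutation p = 0.0339, adjusted 0.0627) was not called, although the p of rho adjusted to 0.0489, and r was 0.409 within the diet and 0.953 within the plasma experiment. Nor was the relation with Ache called (r = 0.108, rho -0.0706, permutation p = 0.751, adjusted 0.819). In SVZ, r was 0.841 with Slc18a3 (rho 0.826), 0.846 with Slc5a7 (rho 0.838) and 0.864 with the striatal markers (rho 0.741), with permutation p of 0.00261, 0.00164 and 4.1e-04 (adjusted 0.00684, 0.00562 and 0.00197), and 0.819, 0.838 and 0.868 without the 2 farthest mice. With Ache, r in SVZ was -0.43 (rho -0.38, permutation p = 0.0678, adjusted 0.0957), at -0.33 within the diet and -0.70 within the plasma experiment, and was not called. For Slc18a3, Slc5a7 and the striatal markers, r in SVZ was 0.893, 0.851 and 0.917 within the diet experiment. Within the plasma experiment these r were 0.621, 0.863 and 0.879. In caudate putamen r within the diet and plasma experiments was 0.860 and 0.927 for Slc18a3, and 0.866 and 0.938 for the striatal markers.

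Corpus callosum is a fibre tract that runs above the striatum and consists mainly of axons and glia. Its 12 libraries held 13.5 to 32.8 CPM of Chat. The summed striatal projection neuron markers in them were 2342 to 6104 CPM, against 4357 to 10337 CPM in caudate putamen and 129 to 174 CPM in motor cortex. Across the 12 libraries Chat and this sum had r = 0.952 on log2(CPM + 1), a relation looked at after the values were seen and given without a p. Choroid plexus libraries ran from 0 to 14.1 CPM of Chat and from 112 to 1359 CPM of the same markers. The highest in both was the library of YMP mouse 77, and r over 16 libraries was 0.902. That library was also the highest in summed choroid plexus markers, at 15277 CPM. Over the 16 libraries Chat and the choroid plexus sum had r = 0.544 on the same scale. The parts of striatal and of choroid plexus tissue in the Chat of these regions were not tested.

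**Figure D3:**
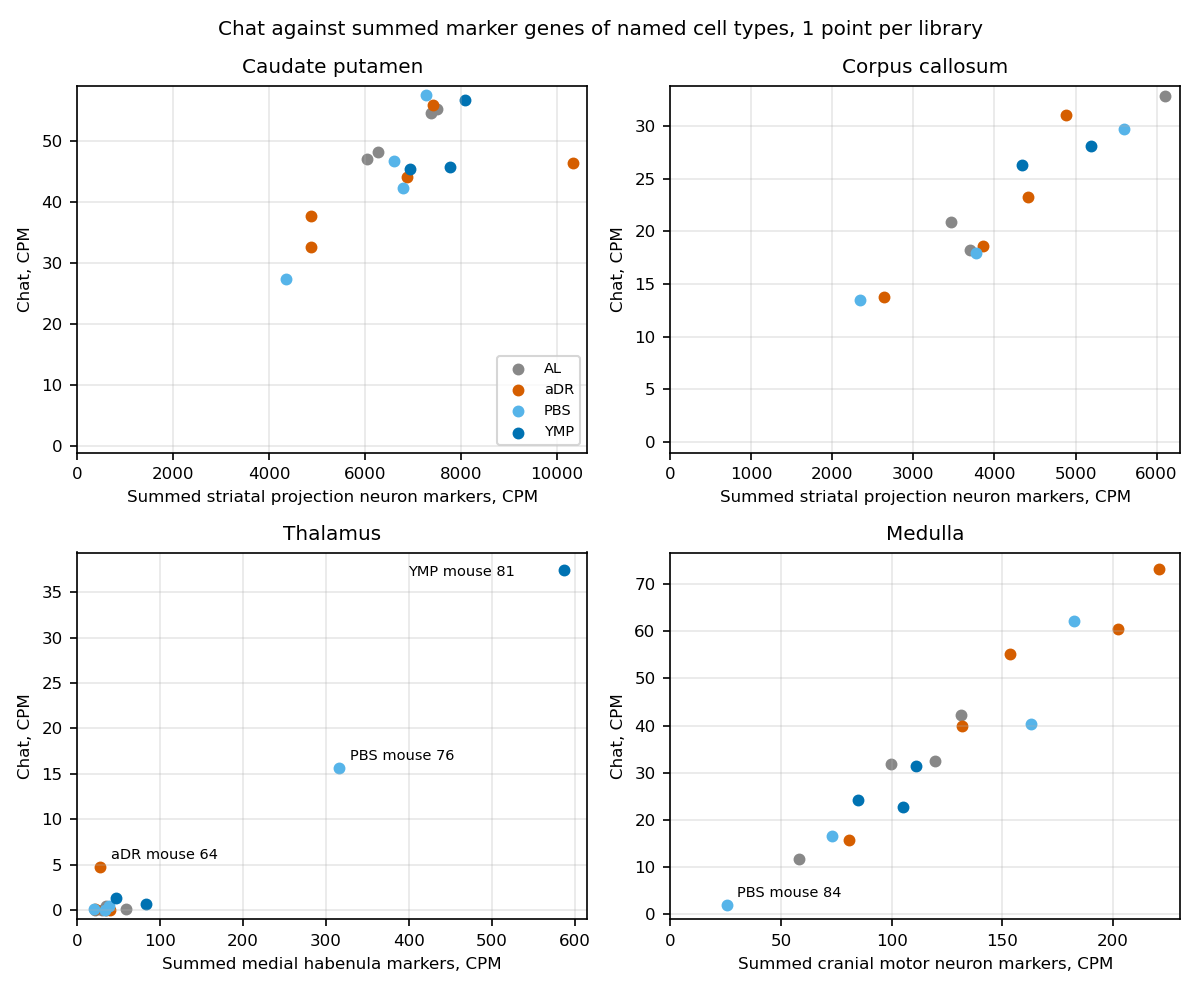
Chat in CPM (vertical axes) against the summed CPM of marker genes in the same library (horizontal axes), those of striatal projection neurons in caudate putamen and corpus callosum, of the medial habenula in thalamus and of cranial motor neurons in medulla, with 1 point per library, coloured by group. Thalamus libraries of mice 76 and 81 are high in both, and the medulla library of mouse 84 is lowest in both.

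Thalamus held 2 kinds of library for these genes, so no pooled correlation is given for it. Chat was 15.6 CPM in PBS mouse 76 and 37.5 CPM in YMP mouse 81, 4.74 CPM in aDR mouse 64, and at most 1.33 CPM in the 13 others. Each of the 7 medial habenula markers was higher in mice 76 and 81 than in any of the 13 others. Tac2 (neurokinin B) measured 55.2 and 85.9 CPM against at most 5.18, Pou4f1 (a homeobox factor of habenular neurons) 25.9 and 50.1 CPM against at most 10.1, and Nwd2 89.8 and 181 CPM against at most 24.7. Their Lhx8 and Gbx1 had 0 counts. In aDR mouse 64 the habenula markers lay within or below the range of the 13 others (Tac2 0.296 CPM) except Gng8, at 6.52 against at most 6.11 CPM, whereas Lhx8, a homeobox factor of forebrain cholinergic neurons, was 4.74 CPM against at most 1.94 in the 13 others. With these 3 libraries left out, an alternative chosen after seeing the data, Chat and Slc18a3 gave r = 0.62 over the other 13 thalamus mice, which was not called (adjusted permutation p = 0.1004).

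In hypothalamus the library of PBS mouse 72 had 34.4 CPM of Chat, 22.1 of Slc18a3 and 37.3 of Slc5a7, whereas the 13 others had at most 2.85, 7.65 and 3.67 CPM. The same library had 73.7 CPM of Lhx8 against at most 10.7, 62.8 of Ngfr (the p75 neurotrophin receptor) against at most 21.6, and 9.33 of Gbx1 against at most 1.19. Its Ache, at 272 CPM, lay within the range of the other hypothalamus libraries. Of 24 relations tested over 6 regions, 12 were called, all with r above 0 (3 of them in thalamus and hypothalamus), and 9 were called with the libraries that stood apart left out. In pons none of the 4 was called, at r between 0.0908 and 0.503. Relative to pan-neuronal markers the pons relation with Ache was 0.709 and was called (adjusted permutation p = 0.00892). The permutation p of rho adjusted to 0.0692 and was not called. Chat had 0 counts in 7 of the 15 pons libraries, and the same marker mean was subtracted from both genes. The part of this shared term in the relation was not tested.

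Other genes of acetylcholine signalling were read from lists of receptors, receptor partners, cholinesterase and its anchors, choline and acetyl-CoA supply, and identity and trophic genes. Of 10 identity and trophic genes, 8 were called higher and 1 lower in AL caudate putamen, and 7 higher and 1 lower in AL medulla. Over all genes 28.5% were called higher and 27.2% lower in AL caudate putamen, and 31.8% higher and 30.4% lower in AL medulla, and the counts of the other lists in these regions are read against the same shares. Lhx8 averaged 16.3 CPM in AL caudate putamen and had 0 counts in AL medulla, and Isl1, a LIM homeobox factor of striatal and motor neurons, averaged 20.2 and 2.58 CPM there. In PBS mice the highest mean of Lhx8 was in hypothalamus, at 25.7 CPM with mouse 72 among them. Isl1 was highest in hypothalamus at 33.7 CPM in AL mice. Slc10a4, a vesicle protein of cholinergic and monoaminergic neurons, was highest in pons at 102 CPM in AL mice and similar in caudate putamen (38.5) and medulla (38.9). In PBS mice it averaged 40.8 CPM in pons, 35.0 in caudate putamen and 29.4 in medulla. The summed identity and trophic genes varied widely over the 15 pons libraries, from 48.5 to 661 CPM with a median of 97.5. Gbx2, a homeobox factor, was highest in thalamus at 76.7 CPM.

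The receptor genes had regional distributions of their own. Among 5 muscarinic receptors, 2 were called higher and 2 lower in AL caudate putamen, and 1 higher and 3 lower in AL medulla. Chrm4, named after its values were seen, was highest in caudate putamen at 9.51 CPM in AL mice. Chrm5 was highest in entorhinal cortex in AL mice at 10.5 CPM, with hypothalamus at 9.54 CPM, and in PBS mice it was highest in hypothalamus at 9.92 CPM. Of 12 nicotinic receptor subunits tested, 1 was called higher and 5 lower in AL caudate putamen, and 4 higher and 0 lower in AL medulla. In AL mice Chrna6, Chrnb3 and Chrna2 were highest in pons at 57.2, 18.7 and 7.55 CPM, and Chrna10 in olfactory bulb at 12.1 CPM. In PBS mice Chrna6 and Chrnb3 were again highest in pons, at 12.3 and 5.44 CPM, but Chrna2 was highest in olfactory bulb, at 3.44 CPM. The summed nicotinic subunits differed widely between the 4 AL pons libraries, from 169 to 596 CPM. In the choline and acetyl-CoA list of 9 tested, 3 were called higher and 2 lower in caudate putamen and 5 higher and 2 lower in medulla. Slc44a3, a choline transporter-like protein, was highest in pons at 9.45 CPM. Among cholinesterase and its anchors, Colq, the collagen tail that holds acetylcholinesterase at the muscle endplate, was also highest in pons, at 9.25 CPM.

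Whether dietary restriction changed the 4 genes was tested within each region. Of 60 gene and region combinations, 32 passed the filter on low counts (5 of 15 regions for Chat and Slc18a3, 7 for Slc5a7 and 15 for Ache), and 0 of the 32 were called. Over all genes 0.0525% of such tests were called. At an unadjusted p under 0.05 there were 5 of 32, against 6.24% of all gene tests, and DESeq2 likewise called 0. Groups did not overlap in 2 of 32, against 3.12% of all gene tests. The fits were also run on artificial counts in which 200 genes had been given a log2 change of 1. Within medulla, edgeR called 31% of these genes for diet, so 0 calls there say little about changes of that size in Chat, Slc18a3 and Slc5a7. All artificial genes were given the same dispersion. The share therefore does not describe Ache, whose standard errors, given below, were smaller. For the test within regions only medulla was simulated.

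The largest diet differences of the 3 cholinergic neuron genes that passed the filter were in medulla. Chat measured 73.1, 15.8, 55.1, 60.4 and 39.9 CPM in aDR mice (mean 48.9 ± 22.01, n = 5) and 42.2, 32.4, 31.96 and 11.7 in AL mice (mean 29.6 ± 12.8, n = 4). The groups overlapped, with aDR mouse 62 below 3 AL mice. The fitted difference was 0.84 on the log2 scale (SE 0.34, edgeR adjusted p = 0.698), with 0.92 (SE 0.38) for Slc18a3 and 0.72 (SE 0.37) for Slc5a7 (edgeR adjusted p = 0.698 and 0.768). The motor neuron marker sum moved with them, at 80.9 to 221 CPM in aDR mice (median 153) and 58.2 to 131 CPM in AL mice (median 110), and its part in the difference was not tested. Chat and Slc18a3 fell under an unadjusted p of 0.05 in medulla, as did 6.75% of all genes there. In caudate putamen Chat was 43.3 ± 8.86 CPM in aDR and 51.2 ± 4.21 in AL mice, a difference of -0.19 (SE 0.17, edgeR adjusted p = 0.705).

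Ache differed by little and mostly upward under restriction, in 12 of 15 regions. These regions share the same mice, so the 12 are not independent. In motor cortex it was 53.3, 57.7, 58.2, 64.6 and 58.3 CPM in aDR mice and 51.6, 50.1, 47.0 and 52.8 CPM in AL mice. Every aDR library lay above every AL library, which 3.82% of genes showed there in either direction. The difference of 0.23 on the log2 scale (SE 0.066) was not called (edgeR adjusted p = 0.224, unadjusted 0.00318 in the model over all genes). Visual cortex gave 45.1 ± 3.00 CPM in aDR and 39.8 ± 1.52 in AL mice, again without overlap (3.32% of genes there), at 0.18 (SE 0.074, edgeR adjusted p = 0.459). The unadjusted p was under 0.05 in both cortical regions, as it was for 10.5% of all genes in motor cortex and 9.11% in visual cortex. Medulla gave 319 ± 31.9 and 285 ± 20.2 CPM, with overlap, at 0.18 (SE 0.078, edgeR adjusted p = 0.706). In pons the aDR mean of 217 ± 78.1 CPM holds mouse 67 at 92.4 CPM, while the 4 other aDR mice had 207 to 304 and the AL mice 231 to 281 CPM. The difference of -0.14 (SE 0.25, edgeR adjusted p = 0.997) became 0.035 without mouse 67 (edgeR adjusted p = 0.9998).

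Young plasma was compared with PBS in the same way. Of 36 combinations tested, 0 were called, against 0.0127% of all gene tests, 1 fell under an unadjusted p of 0.05 (6.11% of all gene tests), and DESeq2 called 0. On the artificial counts, edgeR called 11% of the 200 genes given a log2 change of 1 within medulla for plasma. In caudate putamen Chat was 56.7, 45.7 and 45.4 CPM in YMP mice and 46.6, 27.3, 42.3 and 57.4 CPM in PBS mice, a difference of 0.17 (SE 0.21, edgeR adjusted p = 0.813). Medulla gave 22.7, 31.5 and 24.2 CPM in YMP mice, inside the PBS range of 1.94 to 62.1 CPM (difference -0.14, SE 0.67, edgeR adjusted p = 0.975). Without PBS mouse 84 the difference was -0.55 (edgeR adjusted p = 0.833). The largest fitted differences lay where single libraries stood apart. Hypothalamus gave -2.81 (SE 1.38) for Chat and -2.68 (SE 1.04) for Slc5a7 with PBS mouse 72 in the control group (edgeR adjusted p = 0.998 for both). Slc5a7 there was the 1 with an unadjusted p under 0.05, as had 4.36% of all genes in that region. Without mouse 72 they were 1.06 and -0.30 (edgeR adjusted p = 0.651 and 0.830). Thalamus gave 1.99 (SE 1.67) for Chat with 1 high library in each group (edgeR adjusted p = 0.9997), and without these 2 libraries Chat did not pass the filter on low counts.

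Groups did not overlap in 3 of the 36 combinations, against 9.23% of all gene tests. They were Slc18a3 in corpus callosum (12.4 and 11.1 CPM in YMP against 2.27, 8.70 and 10.5 in PBS mice, where 23.5% of genes did not overlap), Slc5a7 in hypothalamus (9.55% of genes) and Ache in olfactory bulb (58.0 ± 4.53 CPM in YMP and 66.0 ± 2.85 in PBS mice, 7.53% of genes). Chat in corpus callosum was 28.1 and 26.3 CPM in YMP mice and 13.5, 18.0 and 29.7 CPM in PBS mice, at 0.43 (SE 0.31, edgeR adjusted p = 0.828). Without PBS mouse 84 this difference became 0.80 and was called (edgeR adjusted p = 0.0454), with 2 mice left in each group. Striatal markers summed to 4338 and 5190 CPM in the YMP libraries and 2342 to 5593 in the PBS libraries, and choroid plexus markers to 8.82 and 21.1 CPM in YMP and 5039 to 18728 CPM in PBS libraries. Their part in the Chat values was not tested.

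**Figure D4:**
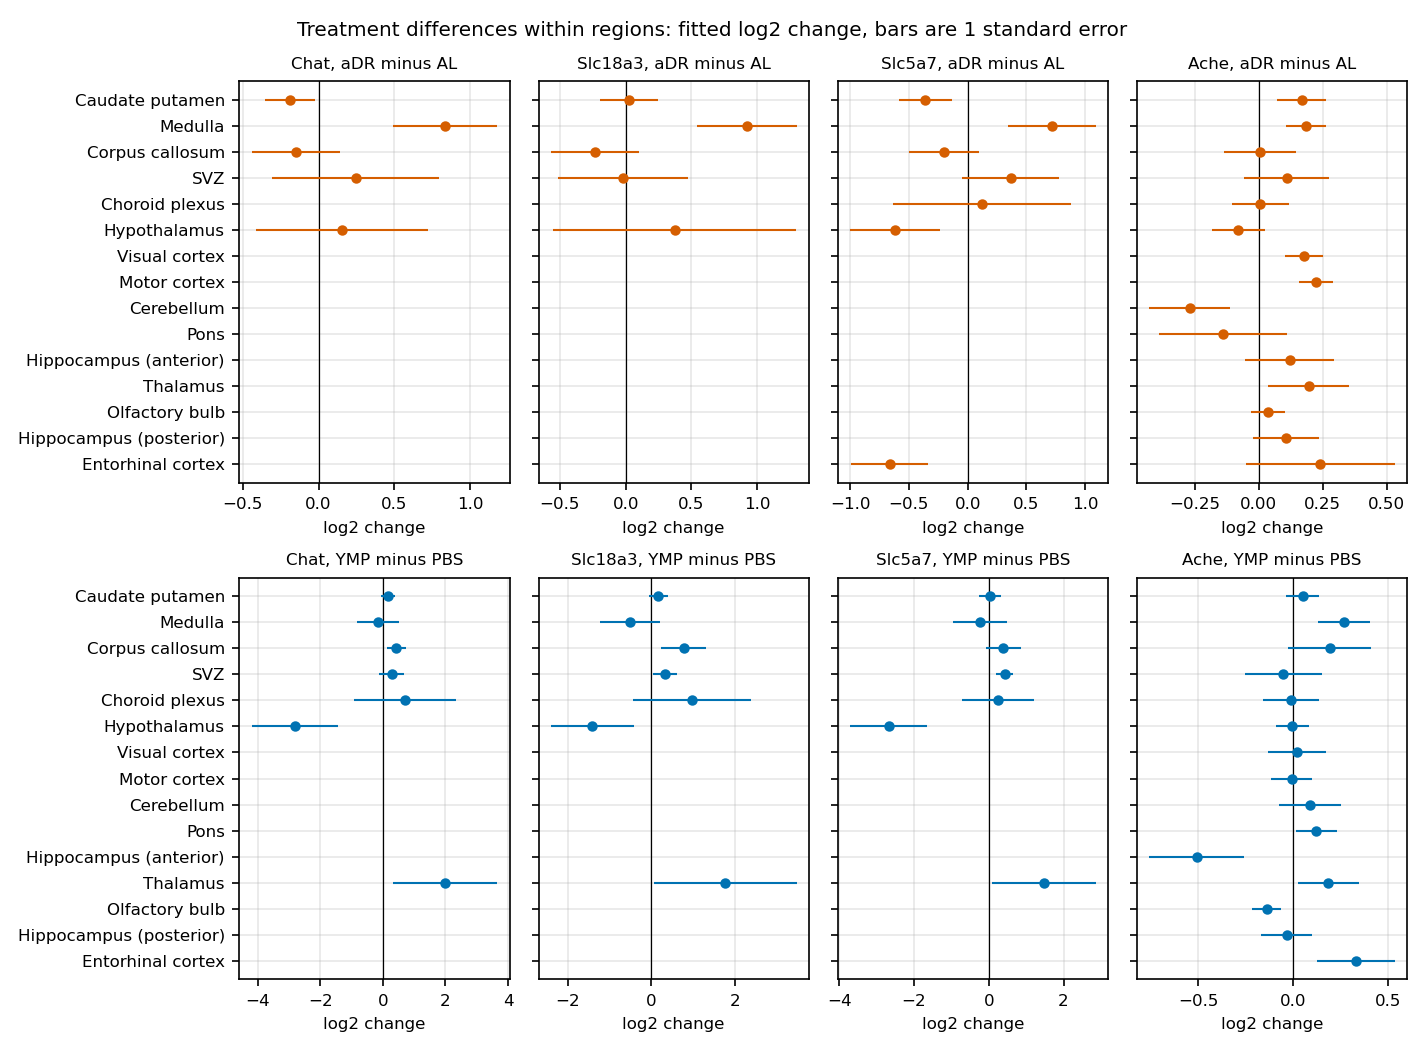
Fitted log2 difference between treated and control mice (horizontal axes, bars of 1 standard error) of each gene in each brain region in which it passed the filter on low counts (vertical axes), for dietary restriction (upper row) and young plasma (lower row). Most intervals of Chat, Slc18a3 and Slc5a7 are wide, the fitted differences of Ache lie between -0.51 and 0.33, and none of the differences was called.

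With 1 value per mouse over all its brain regions, the difference under restriction was 0.11 (SE 0.23) for Chat, 0.060 (SE 0.15) for Slc18a3, -0.11 (SE 0.15) for Slc5a7 and 0.064 (SE 0.037) for Ache on the log2 scale. None was called (limma adjusted p = 0.865, 0.886, 0.775 and 0.434), where 0.922% of all genes were. Plasma gave 0.14 (SE 0.30), 0.13 (SE 0.28), -0.031 (SE 0.18) and 0.038 (SE 0.045), with limma adjusted p of 0.912, 0.915, 0.969 and 0.843, and 0.0% of all genes were called (8.09% had an unadjusted p under 0.05). On the artificial counts, limma called 100% of the 200 genes given a log2 change of 1 in both experiments. These genes came from those above a set mean count, shared the same dispersion and changed in every region. The artificial mice had no differences of their own. Chat, Slc18a3 and Slc5a7 had few counts in most regions, so this share does not show that such a change in them would be called. The test of whether the effect differed between regions called none of the 4 genes in either experiment (edgeR adjusted p = 1 for each), with 0.0128% of all genes called for diet and 0.786% for plasma. That test called 0.5% (diet) and 0% (plasma) of the genes given a log2 change of 1. For a log2 change of 3 it called 100% and 97%. It therefore cannot decide on differences between regions of the smaller size.

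Of the other acetylcholine genes, 0 were called across regions in either experiment, in any of the lists. Bche (butyrylcholinesterase) gave -0.34 (SE 0.10) under restriction without overlap between groups (limma adjusted p = 0.153) and -0.29 (SE 0.14) with plasma (limma adjusted p = 0.644). Prima1, the membrane anchor of acetylcholinesterase, gave -0.21 (SE 0.077), also without overlap, and -0.087 (SE 0.13) with plasma, at limma adjusted p of 0.220 and 0.870. Chrnb2 at -0.085, Ly6e at -0.096 and Chkb, which was higher at 0.13, did not overlap under restriction either (limma adjusted p = 0.148, 0.210 and 0.101). Under restriction 8.3% of all genes did not overlap between groups. These genes were named after their values were seen. The fitted diet differences of the 10 identity and trophic genes were all below 0, with a median of -0.14, where 46.6% of all genes lay above 0 and the median of all genes was -0.0062. With plasma 8 of the 10 were below 0 (median -0.11). Within regions, 1 list gene was called under restriction, Ppp1r1b (DARPP-32, a marker of striatal projection neurons), higher in motor cortex by 0.41 (SE 0.078, edgeR adjusted p = 0.0342), where 0.168% of genes were called higher. With plasma the 5 called were choroid plexus markers lower in corpus callosum (Ttr, Kl, Aqp1, Kcne2 and Slc4a5), where 0.177% of genes were called lower, in the same libraries whose marker sums are given above.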

How the data were processed

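Messenger RNA of 15 brain regions and liver was sequenced without strand information in 238 libraries, and the authors deposited raw read counts per gene. Per the submitters' processing notes, Trim Galore 0.3.7, STAR 2.5.3a, DESeq2 and GRCm38 were used, and the counting program and gene annotation are not given in the sources used here. Mouse numbers in the labels tie regions of 1 mouse together (mean correlation of deviations 0.0477 within and -0.0059 between mice for diet, 0.107 and -0.0179 for plasma). Counts were tested with edgeR 4.0.16 (quasi-likelihood, TMM, filterByExpr with a minimum count of 10 and total of 15) within regions, between regions and for region by treatment, and with limma 3.58.1 on 1 value per mouse across regions (log2 CPM, prior count 2). DESeq2 1.42.0 and R 4.3.3, Python 3.11.15, numpy 2.4.6, pandas 2.3.3 and scipy 1.17.1 served the alternatives and summaries. The p-values of edgeR, limma and DESeq2 were adjusted over all genes tested and permutation p-values over the 24 relations, and the fits across genes were tested on simulated counts. The smallest chi-square per degree of freedom among 357 pairs of replicates was 1.29, so none was merged. Mice of a group are separate animals. Floors (3 counts) and CPM cover counting error only. Named genes were the 4 genes, list genes called in a comparison (the 10 with the smallest p where more were called), the 12 list genes of at least 5 CPM most concentrated in 1 region (1 of them is not reported here), and the 5 genes most like each of the 4 among those of at least 1 CPM in a region. Members and lists were chosen with earlier results of these data known. Alternatives were DESeq2, no filter, other prior counts, a replicate block, shallow libraries left out, each mouse left out and, chosen after seeing the data, the libraries that stood apart left out.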

Additional observations from a re-analysis of the deposited data

Results flagged for a closer look

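In 17 of 102 groups of 4 or 5 libraries tested, 1 library lay far from the others of its group by Dixon's criterion. Chance flags about 1 in 20 groups, values near 0 counts are not evenly spread, and the 17 are not independent, since several are the same library. In thalamus, PBS mouse 76 had 15.6 CPM of Chat, 14.1 of Slc18a3 and 22.6 of Slc5a7, against at most 0.411, 0.247 and 1.33 CPM in the other PBS mice. In the same region aDR mouse 64 had 4.74 CPM of Chat, 1.18 of Slc18a3 and 4.15 of Slc5a7, against at most 0.164, 0.164 and 0.351 CPM in the other aDR mice, and AL mouse 68 had 1.14 CPM of Slc5a7 against at most 0.518.

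In choroid plexus, AL mouse 68 had 5.19 CPM of Chat, 3.67 of Slc18a3 and 4.95 of Slc5a7, against at most 0.167, 0.283 and 0.999 CPM in the other AL mice. The aDR mouse 64 had 5.26 CPM of Chat there against at most 1.45. In SVZ, PBS mouse 72 had 24.1 CPM of Chat against 8.46 to 11.04 in the other PBS mice. In hypothalamus, AL mouse 63 had 5.68 CPM of Slc18a3 against at most 1.19, while its Chat, at 1.10 CPM, lay within the range of the AL mice. Low levels were involved in the remaining 4, which were Chat in cerebellum (AL mouse 68, 1.18 CPM) and Slc5a7 in entorhinal cortex (PBS mouse 76, 2.13 CPM), motor cortex (aDR mouse 67, 1.40 CPM) and visual cortex (aDR mouse 64, 1.10 CPM). The causes were not tested.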

How the results depend on the processing

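Within regions, the diet count of 0 held under each alternative run, and the plasma count ran from 0 to 1 with 1 mouse left out (Chat in corpus callosum, without PBS mouse 84). Across regions none of the 4 genes was called under any alternative run, but directions near 0 turned. With 1 mouse left out, diet differences ran from -0.077 to 0.26 for Chat and from -0.049 to 0.19 for Slc18a3, and plasma differences from -0.058 to 0.35 for Chat, -0.037 to 0.33 for Slc18a3 and -0.15 to 0.10 for Slc5a7. For Slc5a7 the plasma difference was 0.026 over 6 regions with cholinergic cell bodies and 0.015 without libraries under 2 M counts. With mouse as a replicate block it was 0.081 for diet and 0.35 for plasma, and with no replicate block, in edgeR over all libraries, 0.0065 and 0.015. The replicate block also moved the regions called lower for Chat in PBS mice from 0 to 1, and it changed no other call.

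Counts of regions called higher stayed within 1.5 times. Those called lower depended on the method, and Chat, Slc18a3 and Slc5a7 had few counts in these regions. For Chat in AL mice they ran from 0 to 5 with 1 mouse left out. In AL mice DESeq2 gave 6 for Slc18a3 (0 in edgeR). In PBS mice they were 4 for Chat, 4 for Slc18a3 and 4 for Slc5a7 with DESeq2, 3, 1 and 5 with all libraries and treatment as a term, 1 for Chat without the libraries that stood apart, and 1 to 2 for Slc5a7 with 1 mouse left out. Without those libraries, r of Chat turned to -0.33 with Ache in thalamus and -0.36 with the identity genes in hypothalamus. The cause of these changes was not tested. Where a gene had few counts, depth limited what could be detected.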

Other observations

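Marker lists of other cells had the following fitted differences across regions. The 5 red blood cell markers were all above 0 across regions under restriction (median log2 difference 0.93) and all below 0 with plasma (median -0.32), and none was called in either experiment. The 7 choroid plexus markers were all below 0 with plasma (median -1.28), none called, while the median of all genes was -0.0037.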
